A study of Mus musculus with 6 samples.

Results

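Collagen and laminin genes were taken from the deposited comparison table as the protein-coding rows whose symbol has the form of a collagen chain (such as Col4a1) or of an alpha, beta or gamma laminin chain (such as Lamb2). The rule took 56 of 30821 rows, 18058 of which were protein-coding. One of the 56, Col4a3bp, encodes a ceramide transfer protein that is no collagen. It is kept out of the counts below, and its log2 fold change of 0.14 had an adjusted p of 0.315 by edgeR's quasi-likelihood test with Benjamini-Hochberg adjustment. The remaining 55 genes comprised 11 fibrillar collagens, 8 basement membrane collagens, 25 other collagens and 11 laminin chains.

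Hippocampal RNA came from male C57BL/6J mice that had received a stereotaxic injection of adeno-associated virus into the CA1 field on both sides at 8 weeks of age, with 31 days given in the labels for every library. In 3 mice, called TAF15 OE, the virus was AAV-CaMKIIα-TAF15, in which the CaMKIIα promoter drives the RNA-binding protein TAF15 mainly in excitatory neurons. In the other 3, called Control, it was AAV-control, for which the labels name no promoter. Both groups therefore carried a virus and the injury of the injection, and no uninjected mouse was analysed here. Each library came from 1 mouse, and the comparison asks which transcripts of the hippocampus differed between the groups.

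The libraries held between 14965464 and 16067000 counts. Taf15 was 4.27-fold higher in TAF15 OE, at 249, 241 and 272 CPM against 61.7, 63.5 and 53.0 CPM in Control. Of 11 markers of hippocampal excitatory neurons 0 were absent from all libraries, and their summed level was 9121 to 10954 CPM in Control and 6185 to 7719 CPM in TAF15 OE. CPM is a gene's count scaled to a fixed depth by the library's total over the tested genes and its TMM scaling factor. FPKM divides by gene length and by the whole library total without that factor, and is used where single genes are compared with each other. Sums and shares over classes and lists are of CPM, so longer genes weigh more in them. Control 1 and TAF15 OE 1 stood apart in the summed level of 15 markers of choroid plexus epithelium, with 352 CPM in Control 1, 2685 CPM in TAF15 OE 1 and between 6891 and 8052 CPM in the other 4 libraries. Counts below are therefore also given without both of these libraries.

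Collagens are trimers whose chains wind into a triple helix, and fibrillar collagens assemble into the fibrils of connective tissue. Type IV collagen and laminin instead form the sheet-like networks of basement membranes, where laminin trimers of an alpha, a beta and a gamma chain bind integrins and dystroglycan on the cell surface. In the brain, basement membranes surround blood vessels and underlie the pia, whereas fibrillar collagen lies mostly in the meninges and in the walls of larger vessels.

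The 6 chains of type IV collagen are encoded by pairs of genes that start close to each other on opposite strands. The promoters of the most abundant pair and of the pair with the largest difference between the groups are shown, because the pairs behaved differently in these libraries. In GRCm38, Col4a1 (minus strand) and Col4a2 (plus strand) start 21 bases apart on chromosome 8, whereas Col4a6 (minus strand) and Col4a5 (plus strand) start 1309 bases apart on chromosome X. The windows of RefSeq (GRCm38.p6) reach from 250 bases before to 50 bases after the annotated start, and the windows of Col4a1 and Col4a2 share 78 bases. Capitals mark a GC box (GGGCGG) or a CCAAT box (CCAAT) on either strand, so that CCGCCC and ATTGG mark the same motifs on the opposite strand.
Col4a1 (chr8:11312777-11313076, minus strand): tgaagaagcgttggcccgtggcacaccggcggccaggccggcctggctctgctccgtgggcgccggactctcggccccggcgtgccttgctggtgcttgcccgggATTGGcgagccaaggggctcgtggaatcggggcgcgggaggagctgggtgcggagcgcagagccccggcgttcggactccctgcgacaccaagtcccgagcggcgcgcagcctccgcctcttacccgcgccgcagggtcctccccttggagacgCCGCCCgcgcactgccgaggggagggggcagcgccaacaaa
Col4a2 (chr8:11312555-11312854, plus strand): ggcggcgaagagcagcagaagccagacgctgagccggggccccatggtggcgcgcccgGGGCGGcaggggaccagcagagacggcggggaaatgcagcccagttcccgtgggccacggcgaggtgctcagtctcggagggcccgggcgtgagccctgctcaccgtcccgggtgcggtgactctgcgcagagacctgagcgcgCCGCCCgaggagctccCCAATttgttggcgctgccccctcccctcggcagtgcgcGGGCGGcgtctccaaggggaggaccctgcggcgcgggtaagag
Col4a5 (chrX:141475169-141475468, plus strand): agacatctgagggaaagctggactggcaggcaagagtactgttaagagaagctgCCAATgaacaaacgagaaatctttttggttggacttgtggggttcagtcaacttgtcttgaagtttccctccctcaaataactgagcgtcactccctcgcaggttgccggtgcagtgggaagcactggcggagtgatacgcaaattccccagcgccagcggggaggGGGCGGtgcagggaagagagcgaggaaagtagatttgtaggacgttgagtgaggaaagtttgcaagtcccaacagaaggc
Col4a6 (chrX:141474027-141474326, minus strand): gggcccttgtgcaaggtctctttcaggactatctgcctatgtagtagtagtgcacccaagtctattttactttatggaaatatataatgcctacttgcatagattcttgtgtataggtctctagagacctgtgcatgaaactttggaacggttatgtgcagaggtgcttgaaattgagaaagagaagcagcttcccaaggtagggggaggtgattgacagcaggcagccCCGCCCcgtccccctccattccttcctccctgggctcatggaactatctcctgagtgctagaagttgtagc
The windows of Col4a1 and Col4a2 held 37 and 33 CpG dinucleotides at a GC content of 74% and 73.7%. Those of Col4a5 and Col4a6 held 11 and 3 CpG at 52.7% and 48.3%. A TATA box (TATAAA, either strand) was in none of these 4 windows. Over all 32851 promoter windows of RefSeq the median was 7 CpG at 52.7% GC, and 35.7% held a GC box, 37.4% a CCAAT box and 13.6% a TATA box.

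In TAF15 OE, 16 of the 53 collagen and laminin genes tested were higher and 0 were lower at an adjusted p below 0.05 by edgeR's quasi-likelihood test. The share called higher was 30.2%, and over all 16758 genes tested it was 9.32% higher and 5.95% lower. At an unadjusted p below 0.05, 2 members were lower, Col11a1 and Col6a4, and DESeq2 and limma-voom each called 1 lower. Called changes ran from 0.61 to 1.76 on the log2 scale, with standard errors from 0.10 to 0.50. The median log2 fold change of the 53 genes was 0.50, and over all genes tested it was 0.026. Of the 37 genes that did not pass, 34 had a positive and 3 a negative log2 fold change.

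The 2 groups did not overlap in 20 members that were higher and in 1 that was lower, where 19.1% and 15.5% of all genes tested did so (34.6% in either direction). The filter on low counts removed Col10a1 and Col28a1, which had at most 10 counts in any library. A gene expressed in 1 group alone could pass that filter through this group, so the counts describe the genes that passed and not every member. Without both Control 1 and TAF15 OE 1, 13 members were called higher and 0 lower, 12 of them shared with the 16, where 7.05% of 16968 genes tested were called higher and 5.99% lower. Leaving out Control 1 alone or TAF15 OE 3 alone left 10 called higher. Over all genes tested, calls in either direction were then 1381 of 17233 and 1739 of 17039, against 2559 of 16758 with every library. In bulk tissue, fewer cells of a type and less RNA per cell cannot be told apart, nor can more cells and more RNA per cell.

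**Figure D1:**
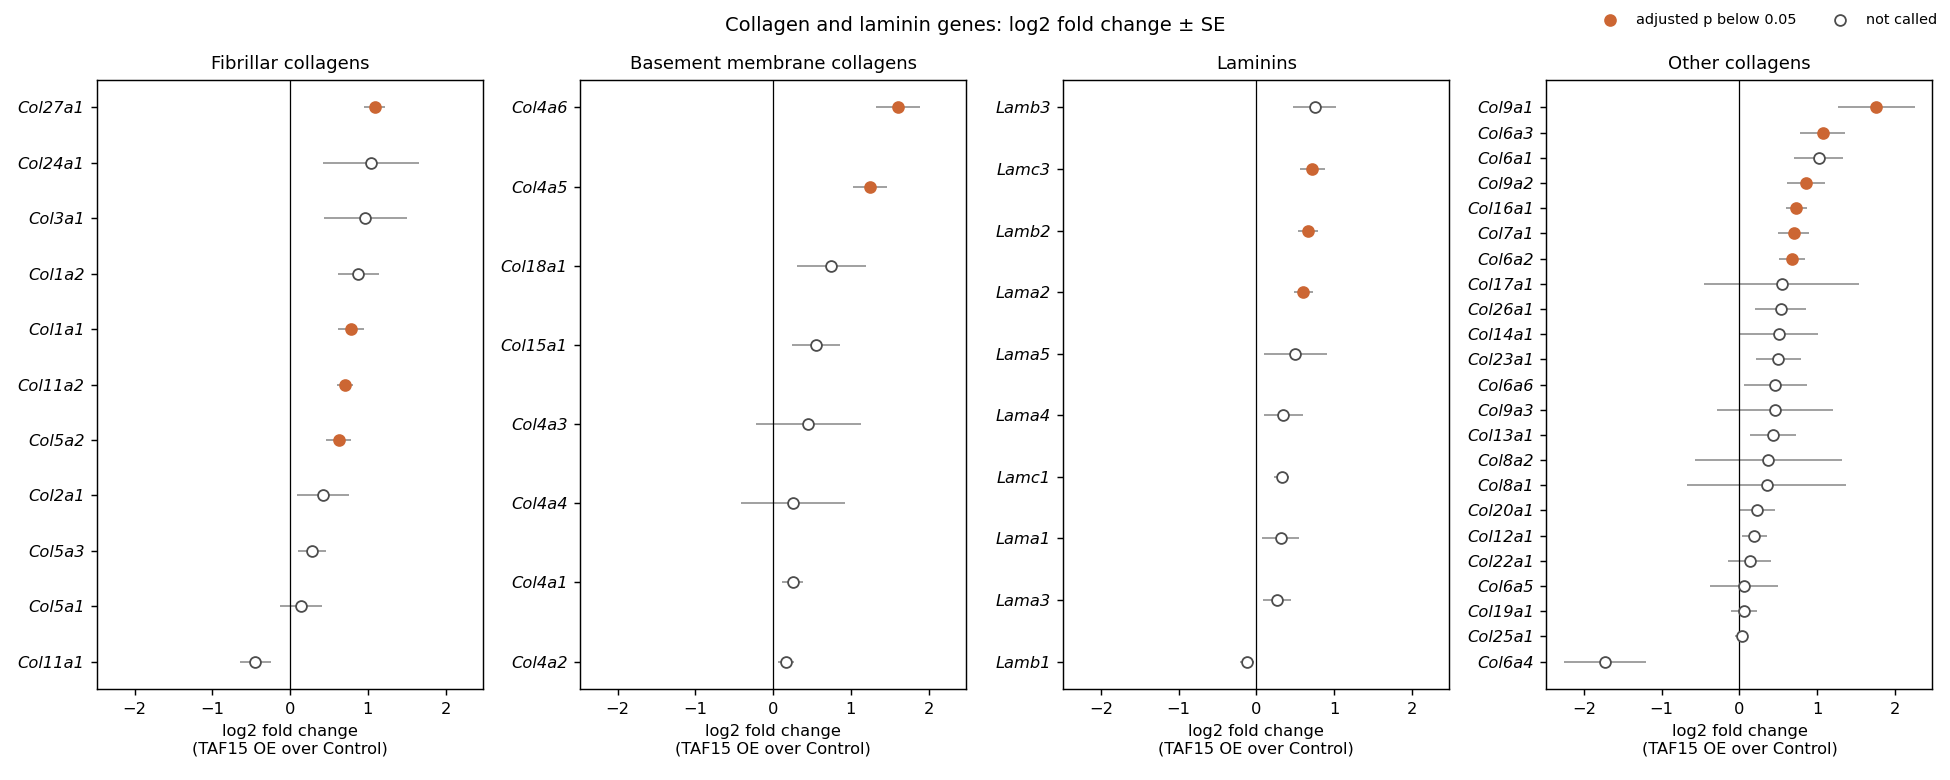
Log2 fold change (TAF15 OE over Control, horizontal axis) of tested members in the 4 classes, with bars of 1 standard error; filled points passed the test and open points did not. The filled points lie between 0.61 and 1.76, and the 3 points left of 0 (Col11a1, Lamb1 and Col6a4) are open.

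Among the basement membrane collagens, Col4a5 and Col4a6 rose and the other 6 did not pass the test. Col4a5 measured 3.74, 5.77 and 7.46 CPM in Control 1, 2 and 3 and 12.5, 13.3 and 14.5 CPM in TAF15 OE 1, 2 and 3. Col4a6 measured 1.36, 1.72 and 2.27 CPM in Control and 6.20, 3.81 and 6.25 CPM in TAF15 OE, again in order of replicate. Every TAF15 OE library lay above every Control library for both genes. The increase was 2.37-fold for Col4a5 (log2 fold change 1.25, SE 0.21, adjusted p = 0.00427) and 3.03-fold for Col4a6 (1.60, SE 0.28, adjusted p = 0.00433). Chains from these genes assemble together in the basement membranes of smooth muscle and some epithelia.

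Col4a1 and Col4a2 encode the chains found in nearly all basement membranes and were the most abundant of the class, at 6.87 ± 0.959 and 9.69 ± 0.289 FPKM in Control (SD, n = 3). Col4a1 measured 53.3, 44.2 and 59.2 CPM in Control and 73.6, 58.1 and 54.7 CPM in TAF15 OE. Col4a2 measured 66.4, 62.5 and 67.0 CPM in Control and 86.4, 67.3 and 66.4 CPM in TAF15 OE. For both genes TAF15 OE 1 was the highest library and the groups overlapped. Their log2 fold changes of 0.25 and 0.17 did not pass (adjusted p = 0.257 and 0.303). The FPKM ratio of Col4a1 to Col4a2 was 0.713, 0.627 and 0.783 in the Control libraries and 0.756, 0.766 and 0.731 in TAF15 OE. The ratio of Col4a5 to Col4a1 was 0.0778, 0.145 and 0.140 in the Control libraries and 0.188, 0.255 and 0.294 in TAF15 OE, without overlap. Pairs for such ratios were chosen after their values had been seen, and no test was made of them. Other ratios taken were Col4a5 to Col4a6, Col4a3 to Col4a4, Col1a1 to Col1a2 and Col6a1 to Col6a2. Those of Col6a3 to Col6a1, Lama2 to Lama4 and Col8a1 to Col8a2 were taken as well. In each of these other ratios the groups overlapped.

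The pair Col4a3 and Col4a4, whose products join that of Col4a5 in the kidney glomerulus, followed a different pattern across libraries. Col4a3 measured 0.543, 3.51 and 4.26 CPM in Control and 2.11, 4.21 and 5.10 CPM in TAF15 OE. Col4a4 measured 1.22, 5.70 and 7.86 CPM in Control and 3.58, 5.79 and 8.25 CPM in TAF15 OE. In each group the first library was the lowest for both genes. Neither passed, with log2 fold changes of 0.45 and 0.25.

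Col15a1 and Col18a1 encode the multiplexins, basement membrane collagens with long interruptions of the helix. Col15a1 measured 4.28, 2.92 and 6.60 CPM in Control and 8.88, 6.25 and 5.10 CPM in TAF15 OE. Col18a1, the source of the fragment endostatin, measured 3.67, 9.48 and 13.7 CPM in Control and 13.3, 14.9 and 17.0 CPM in TAF15 OE. Their groups overlapped, and the log2 fold changes of 0.55 and 0.75 had adjusted p = 0.270 and 0.342. Over the 8 genes of the class the median log2 fold change was 0.50, and it was 0.23 without Control 1 and TAF15 OE 1, with 2 genes called higher either way. Without Control 3 alone the median was 0.90, and without Control 1 alone 0.32.

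**Figure D2:**
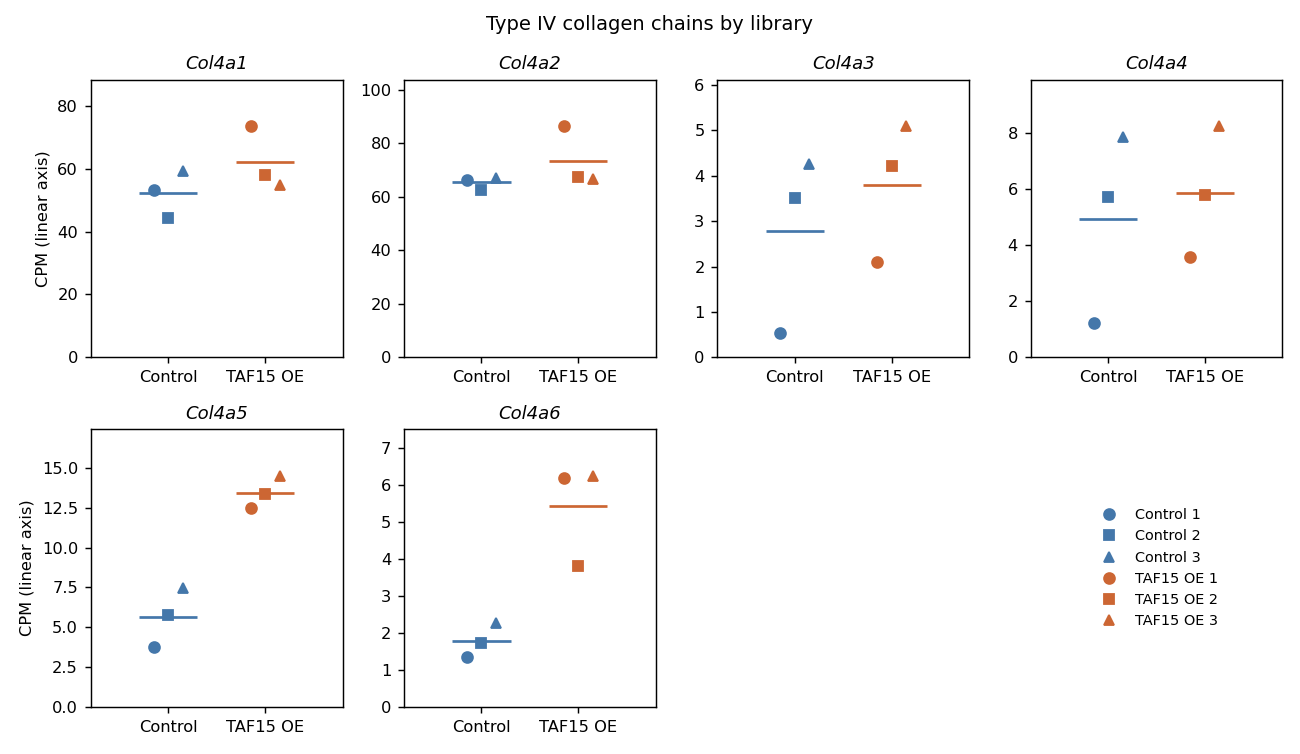
CPM (linear axis from 0, vertical) of the 6 type IV collagen genes in each Control and TAF15 OE library, with a line at the group mean and a symbol for each replicate number. Col4a5 and Col4a6 are separated between the groups, Col4a1 and Col4a2 overlap with TAF15 OE 1 highest, and Col4a3 and Col4a4 are lowest in replicate 1 of each group.

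Among the fibrillar collagens, Col27a1, Col11a2, Col1a1 and Col5a2 rose, 4 of 11 tested, and none fell. The same 4 were called without Control 1 and TAF15 OE 1. Col27a1, a collagen best known from cartilage, measured 9.30, 7.96 and 9.26 CPM in Control and 21.3, 18.5 and 16.7 CPM in TAF15 OE. It rose 2.13-fold (log2 fold change 1.09, SE 0.14, adjusted p = 8.21e-04). Col11a2, a chain of the type XI collagen that nucleates fibrils, measured 33.1, 31.0 and 38.8 CPM in Control and 60.8, 52.7 and 54.7 CPM in TAF15 OE. It rose 1.63-fold (0.71, SE 0.10, adjusted p = 0.00157), was the most abundant fibrillar collagen at 8.33 ± 0.544 FPKM in TAF15 OE, and was the one member called under every one of its 18 alternative settings.

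The chains of type I collagen, the main fibrillar collagen of connective tissue, had similar estimates. Col1a1 measured 11.5, 9.09 and 13.8 CPM in Control and 22.8, 18.0 and 18.3 CPM in TAF15 OE. It rose 1.72-fold (0.78, SE 0.16, adjusted p = 0.00922). Col1a2 measured 10.5, 15.1 and 22.3 CPM in Control and 31.8, 24.5 and 31.7 CPM in TAF15 OE. Its groups did not overlap, but its log2 fold change of 0.88 (SE 0.27) missed the threshold at an adjusted p of 0.0770, with a range of 2.04e-06 to 0.220 over the alternatives. DESeq2, limma-voom, the replicate block, no filter and leaving out Control 3 each called it.

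Col5a2, a chain of the collagen that limits fibril diameter, measured 6.86, 7.43 and 9.66 CPM in Control and 11.3, 12.8 and 12.8 CPM in TAF15 OE. It rose 1.54-fold (0.62, SE 0.16, adjusted p = 0.0229). That call was lost without Control 1, Control 2, TAF15 OE 2 or TAF15 OE 3, at adjusted p of 0.0718 to 0.0860. Its partner chain Col5a1 did not pass (log2 fold change 0.14), and the FPKM ratio of Col5a1 to Col5a2 was 2.00, 2.15 and 2.06 in the Control libraries and 1.06, 1.36 and 1.97 in TAF15 OE. TAF15 OE 3 lay close to the Control libraries in that ratio.

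Col3a1, the fibrillar collagen of vessel walls, measured 2.51, 1.86 and 6.53 CPM in Control and 10.6, 4.87 and 5.89 CPM in TAF15 OE. Its groups overlapped and its log2 fold change of 0.97 had an SE of 0.53 (adjusted p = 0.292). Without Control 3, the highest Control library, its adjusted p was 0.0292. Col11a1, the other type XI chain, was the 1 fibrillar gene with a negative estimate, at 14.7, 9.35 and 13.1 CPM in Control and 8.11, 11.4 and 7.77 CPM in TAF15 OE. That log2 fold change of -0.45 did not pass (adjusted p = 0.163), and Col2a1, Col5a3 and Col24a1 did not pass either.

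Laminin chains rose in 4 of 11 tested, among them Lama2, Lamb2 and Lamc3, and none fell. Lamb2, the beta chain of synaptic and vascular laminins, measured 29.6, 38.4 and 40.2 CPM in Control and 57.1, 50.4 and 64.5 CPM in TAF15 OE. It rose 1.59-fold (log2 fold change 0.67, SE 0.13, adjusted p = 0.00805). Lama2, the alpha chain mutated in merosin-deficient muscular dystrophy, measured 14.7, 14.9 and 18.1 CPM in Control and 26.4, 22.3 and 23.9 CPM in TAF15 OE. It rose 1.52-fold (0.61, SE 0.12, adjusted p = 0.00776), although its exons share 3.86% of their bases with the antisense gene Gm48084.

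Lamc3 encodes a gamma chain of lower level than Lamc1 in these libraries. It measured 4.96, 6.04 and 6.06 CPM in Control and 9.90, 8.61 and 9.65 CPM in TAF15 OE, with a log2 fold change of 0.72 (adjusted p = 0.0129). It shares 6.27% of its exon bases with the antisense gene Gm13441, and without Control 1 and TAF15 OE 1 its adjusted p was 0.0594. Lamc1, the gamma chain of most laminins, measured 43.1, 41.1 and 48.5 CPM in Control and 58.8, 47.9 and 59.4 CPM in TAF15 OE. Its log2 fold change of 0.32 lay just outside the threshold, with an adjusted p of 0.0521 and a range of 0.0175 to 0.223 over the alternatives.

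Lamb1, the beta chain shared by many early laminins, was the 1 laminin with a negative estimate. It measured 49.6, 53.3 and 56.8 CPM in Control and 44.2, 51.8 and 50.6 CPM in TAF15 OE (log2 fold change -0.12, adjusted p = 0.393). Per length, Lamb2 stood at 5.83 ± 1.00 FPKM in Control and 9.57 ± 1.23 FPKM in TAF15 OE, and Lamb1 at 5.28 ± 0.428 FPKM in Control (SD, n = 3) and at 4.46, 5.31 and 5.23 FPKM in TAF15 OE. The ratio of Lamb2 to Lamb1 was 0.974, 1.17 and 1.15 in the Control libraries and 2.11, 1.59 and 2.08 in TAF15 OE. The ratio of Lamc3 to Lamc1 was 0.156, 0.199 and 0.170 in the Control libraries and 0.229, 0.244 and 0.221 in TAF15 OE. In neither ratio did the groups overlap. Lama3 and Lamb3, chains of epithelial laminin, did not overlap between the groups either, but did not pass (adjusted p = 0.376 and 0.0956). Lama1, Lama4 and Lama5 did not pass, with log2 fold changes of 0.32, 0.35 and 0.50. The class median was 0.50, and 0.35 without Control 1 and TAF15 OE 1, when 3 laminins were called.

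**Figure D3:**
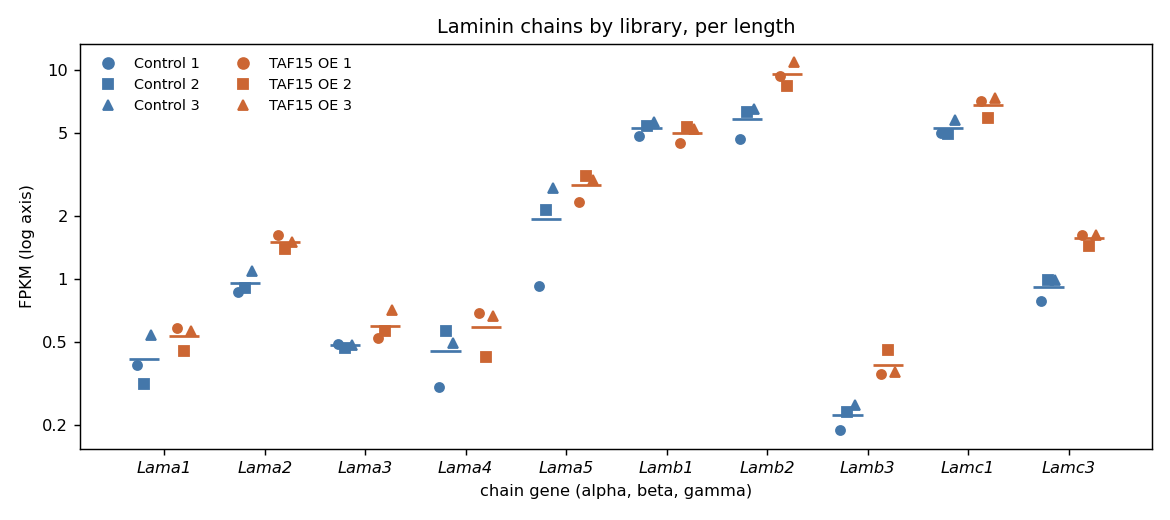
FPKM (log axis, vertical) of laminin chains in each library, with a line at the group mean and a symbol for each replicate number. Lamb2 lies near Lamb1 in Control, at 5.83 against 5.28 FPKM, and above it in every TAF15 OE library, with a mean of 9.57 FPKM.

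Of the other collagens, 6 of 23 tested rose, Col16a1, Col6a2, Col9a2, Col6a3, Col9a1 and Col7a1, and none fell. This count depended on single libraries. It was 2 without Control 1, Control 2, TAF15 OE 2 or TAF15 OE 3, 3 without TAF15 OE 1 and 5 without Control 3. Over all genes, calls in either direction were 1381 of 17233 and 1519 of 17205 without Control 1 and Control 2 in turn. They were 1331 of 17103 and 1739 of 17039 without TAF15 OE 2 and TAF15 OE 3 in turn. The 2 of 23 thus lay close to the share of all genes called in those fits. Without both Control 1 and TAF15 OE 1 the number of other collagens called was 4, having lost Col6a3, Col7a1 and Col9a2 and gained Col23a1. Col16a1, a collagen that associates with fibrils, measured 13.3, 12.5 and 13.1 CPM in Control and 18.3, 21.5 and 25.0 CPM in TAF15 OE. It rose 1.66-fold (log2 fold change 0.73, SE 0.13, adjusted p = 0.00451).

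Type VI collagen forms beaded microfilaments next to basement membranes. Col6a2 measured 8.49, 13.1 and 13.0 CPM in Control and 17.0, 18.0 and 20.3 CPM in TAF15 OE, and rose with a log2 fold change of 0.68 (adjusted p = 0.0193). Col6a3 measured 2.24, 2.32 and 4.66 CPM in Control and 8.05, 5.46 and 5.89 CPM in TAF15 OE, and rose with a log2 fold change of 1.07 (adjusted p = 0.0335). The call of Col6a2 was lost under 5 of 18 alternatives, among them without TAF15 OE 2 or TAF15 OE 3 (adjusted p = 0.0611 and 0.0689). That of Col6a3 was lost under 7 of 16, among them without any 1 library other than Control 3, at adjusted p of 0.0657 to 0.128. Col6a1 was the most abundant type VI gene, at 8.06 ± 2.45 FPKM in Control and 16.9 ± 4.58 FPKM in TAF15 OE (SD, n = 3). It measured 23.8, 41.8 and 41.8 CPM in Control and 70.7, 93.7 and 54.0 CPM in TAF15 OE. Its groups did not overlap, yet the spread within them was wide, and the log2 fold change of 1.02 (SE 0.32) had an adjusted p of 0.105. DESeq2 gave 0.0251 and limma-voom 0.0261, within a range of 0.0251 to 0.294 over the alternatives.

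Col6a4 was the 1 member whose TAF15 OE libraries all lay below Control, and it is described here because of that value. It measured 4.07, 6.83 and 6.80 CPM in Control and 1.53, 0.526 and 3.22 CPM in TAF15 OE. Its log2 fold change of -1.73 (SE 0.53) did not pass by edgeR (adjusted p = 0.0709). Over the alternatives the adjusted p ran from 3.83e-08 to 0.201, and 5 of 16 called it lower. Col6a5 and Col6a6 did not pass, with log2 fold changes of 0.060 and 0.46. Summed over the 6 type VI genes, the level was 41.2, 66.3 and 68.8 CPM in Control and 98.9, 121 and 87.0 CPM in TAF15 OE. In every library Col6a1, which did not pass, made up most of that sum.

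Type IX collagen decorates fibrils and is best known from cartilage and the vitreous. Col9a1 had the largest estimate of all members, but only 4, 7 and 5 counts in Control and 11, 29 and 18 counts in TAF15 OE. Its log2 fold change was 1.76 (SE 0.50, adjusted p = 0.0341), and the call was lost under 7 of 14 alternatives. Col9a2 measured 4.62, 3.05 and 5.66 CPM in Control and 9.26, 6.31 and 8.56 CPM in TAF15 OE (0.86, SE 0.24, adjusted p = 0.0330), a call lost under 8 of 18. Col7a1, the anchoring fibril collagen of skin, measured 3.53, 3.91 and 4.93 CPM in Control and 7.16, 7.30 and 5.64 CPM in TAF15 OE. Its log2 fold change was 0.70 (adjusted p = 0.0389), just inside the threshold, and its call was lost under 9 of 18 alternatives.

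**Figure D4:**
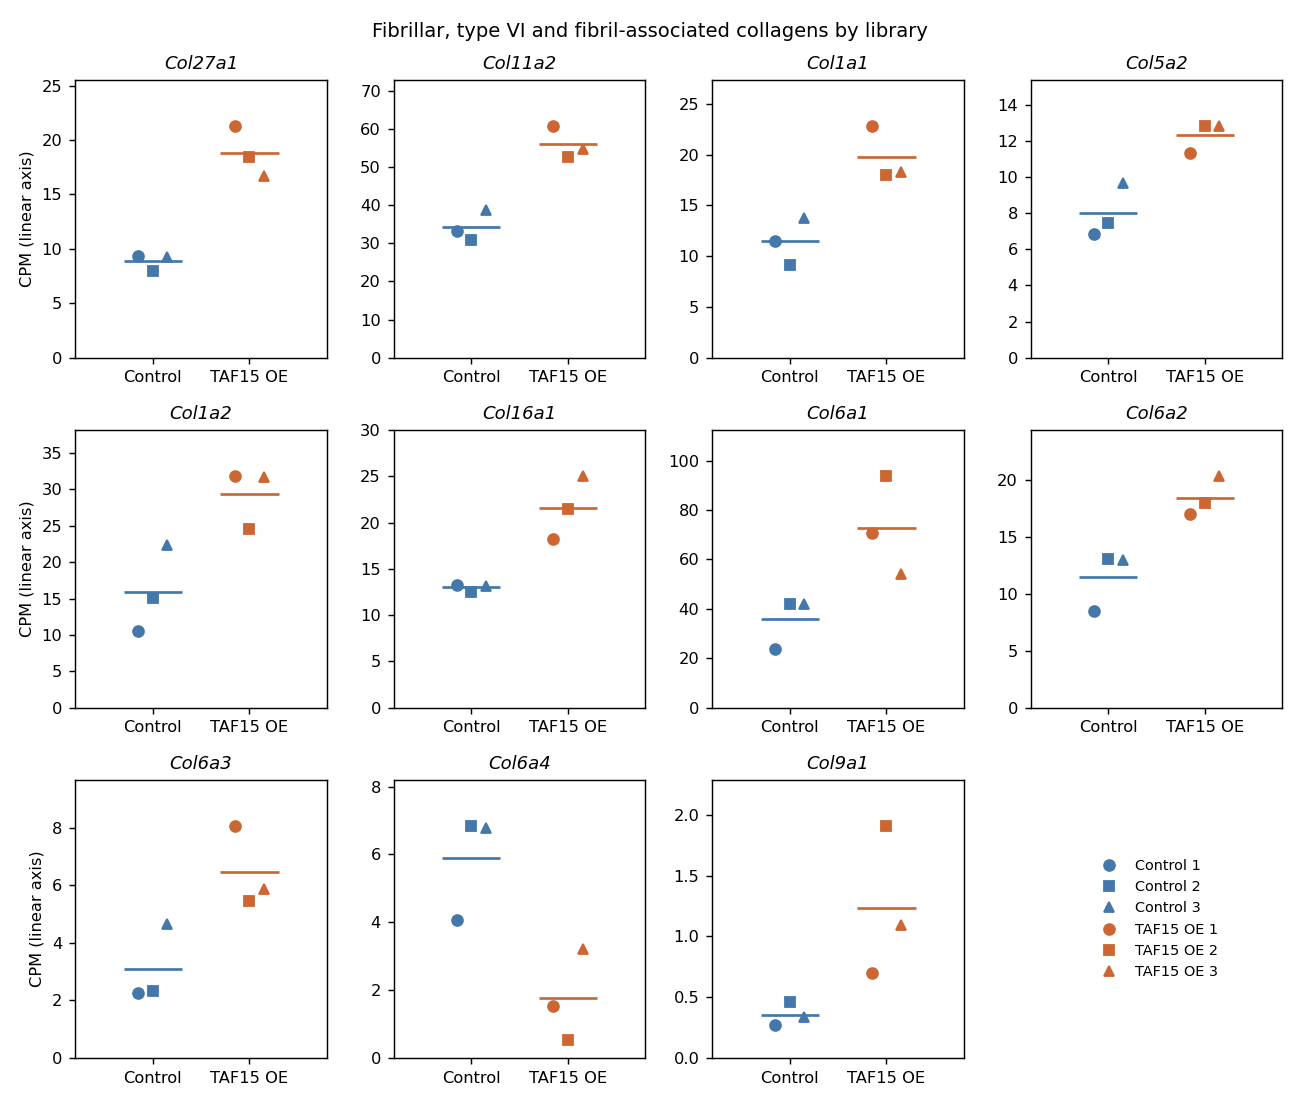
CPM (linear axis from 0, vertical) of 11 fibrillar, type VI and fibril-associated collagens in each Control and TAF15 OE library, with a line at the group mean and a symbol for each replicate number. Groups do not overlap in any of the 11 panels, as they do not in 34.6% of all genes tested. Genes of these types whose groups overlapped, such as Col3a1, Col11a1 and Col6a5, are not drawn. Col6a4 is the one panel with TAF15 OE below Control, and Col1a2, Col6a1 and Col6a4 did not pass the test.

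Several members were low in the same libraries as the choroid plexus markers. Col9a3, which had the highest mean level of all members at 16.5 FPKM, measured 14.3, 71.0 and 74.5 CPM in Control and 40.8, 81.5 and 97.0 CPM in TAF15 OE. Col8a1 and Col8a2 encode a short-chain network collagen of vessels and the cornea. Col8a1 measured 1.70, 24.6 and 28.7 CPM in Control and 12.0, 22.4 and 35.8 CPM in TAF15 OE, and Col8a2 measured 2.31, 25.9 and 28.7 CPM and 13.0, 29.1 and 31.6 CPM. None of the 3 passed the test, and Col9a3 shares 6.07% of its exon bases with Tcfl5 on the opposite strand. In Control 1 the levels of Col9a3, Col8a1 and Col8a2 were 19.6%, 6.37% and 8.46% of the mean of Control 2 and 3. Those of Col4a3, Col4a4, Col18a1 and Lama5 were 14.0%, 18.0%, 31.6% and 39.0%. In TAF15 OE 1, Col9a3, Col8a1 and Col8a2 stood at 45.7%, 41.3% and 43.0% of the mean of TAF15 OE 2 and 3. Col4a3 and Col4a4 stood at 45.3% and 51.0% there, whereas Col18a1 and Lama5 stood at 83.3% and 77.9%.

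Of the 53 tested members, 10 had a Control 1 level under 50% of the mean of Control 2 and 3, and 0 of these were called. A low Control 1 widens the spread within Control, so a call was unlikely for them. In the called members Control 1 ran from 56.5% of that mean (Col4a5) to 108% (Col27a1). In TAF15 OE 1, 9 members were under 50% of the mean of TAF15 OE 2 and 3, and 7 members were under both limits. Summed over the 15 choroid plexus markers, of which 0 were called, Control 1 was likewise the lowest library and TAF15 OE 1 the next. The part of choroid plexus tissue in these members' values was not tested. Col25a1, a membrane collagen made by neurons, overlapped between the groups and did not pass, at 83.7, 73.7 and 85.4 CPM in Control and 76.9, 86.0 and 84.8 CPM in TAF15 OE (log2 fold change 0.028, adjusted p = 0.858).

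**Figure D5:**
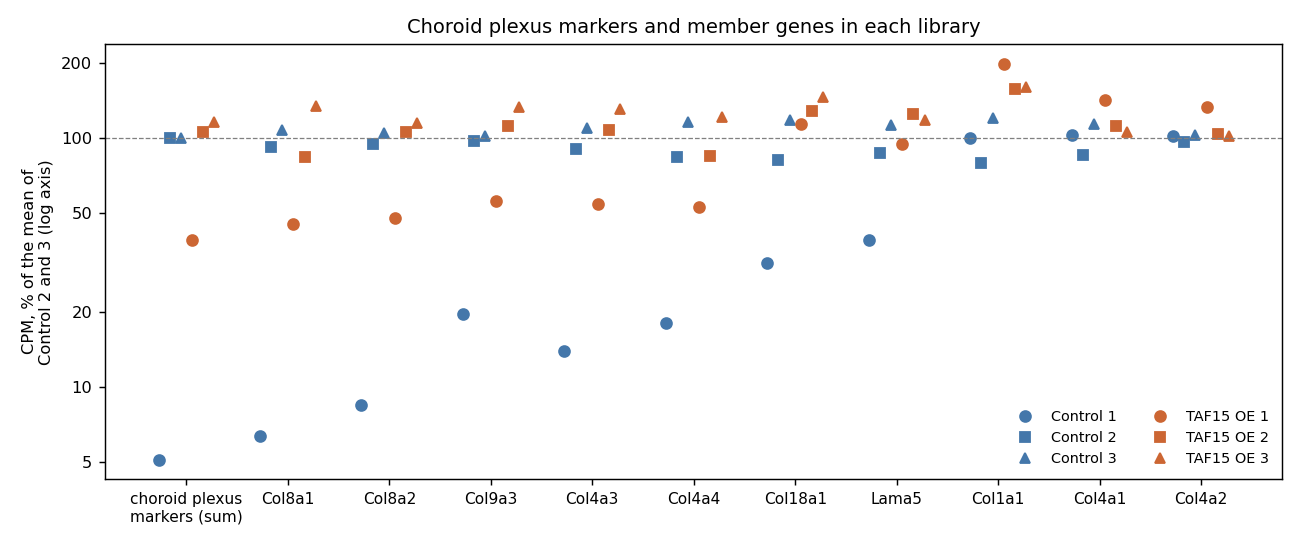
CPM as a percentage of the mean of Control 2 and 3 (log axis, vertical) for the sum of the 15 choroid plexus markers and for 10 member genes, with one symbol per library. Control 1 lies at 6.37% for Col8a1, 19.6% for Col9a3 and 39.0% for Lama5, whereas Col1a1, Col4a1 and Col4a2 in Control 1 lie close to the dashed line at 100%. Members with Control 1 between these levels, such as Col4a5 at 56.5% and Col1a2 at 56.3%, are not drawn.

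The remaining other collagens, Col12a1, Col13a1, Col14a1, Col17a1, Col19a1, Col20a1, Col22a1, Col23a1 and Col26a1, did not pass, with log2 fold changes between 0.058 and 0.54. Summed over each class, every TAF15 OE library was above every Control library for fibrillar collagens, basement membrane collagens and laminins. Fibrillar collagens summed to 108, 103 and 139 CPM in Control and 186, 168 and 180 CPM in TAF15 OE. Laminins summed to 169, 197 and 221 CPM and 248, 239 and 269 CPM. Basement membrane collagens summed to 134, 136 and 168 CPM in Control and 207, 174 and 177 CPM in TAF15 OE, with a narrow gap between Control 3 and TAF15 OE 2. Other collagens overlapped, with 216, 339 and 373 CPM against 340, 443 and 456 CPM.

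Within the summed CPM of all collagens, which is not corrected for gene length, the shares of the classes overlapped between the groups. Fibrillar collagens made up 20.6 ± 2.85% of it in Control and 23.0 ± 2.09% in TAF15 OE (SD, n = 3). Basement membrane collagens made up 25.9 ± 3.08% and 24.0 ± 3.61%, and other collagens 53.6 ± 5.87% and 53.0 ± 5.66%. The median log2 fold changes were 0.71, 0.50, 0.46 and 0.50 for fibrillar, basement membrane and other collagens and for laminins, and 0.56, 0.23, 0.36 and 0.35 without Control 1 and TAF15 OE 1. Whether the classes differed from each other was not tested.

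Enzymes that modify and crosslink collagen were called higher in 6 of 29 tested, where 9.32% of all genes tested were, and lower in 0. Their median log2 fold change was 0.10. Without both Control 1 and TAF15 OE 1 the count was 1 of 30, where 7.05% of all genes tested were called higher. The count was also 1 without Control 1 alone, and 2 without Control 3, TAF15 OE 1 or TAF15 OE 2. P4ha3, a subunit of the prolyl hydroxylase that stabilises the triple helix, rose from 3.86 ± 0.453 to 10.8 ± 1.86 CPM (SD, n = 3), with a log2 fold change of 1.48. The lysyl hydroxylase gene Plod2 rose by a log2 fold change of 0.67. The crosslinking lysyl oxidases Loxl3 and Lox rose by 0.70 and 1.59 on that scale.

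Receptors for collagen and laminin were called higher in 7 of 16, where 9.32% of all genes tested were, and lower in 0. Their median was 0.50, and 6 were called without Control 1 and TAF15 OE 1. Without TAF15 OE 1 alone 7 were called higher and 2 lower (Itga11 and Itga7). Those higher with all 6 libraries included Lair1, a collagen receptor of leukocytes (log2 fold change 1.30), Itga6 and Itgb1, subunits of laminin-binding integrins (0.70 and 0.47), and Ddr1, a collagen-activated kinase (0.56). Other basement membrane and fibril partners were called higher in 7 of 18 and lower in 0, with a median of 0.49. That count was 3 without Control 1 or without Control 2, 4 without TAF15 OE 3, and 5 higher with 1 lower (Smoc2) without both Control 1 and TAF15 OE 1. DESeq2 also called Smoc2 lower. Its leading genes were the collagen-binding glycoprotein Sparc (0.56), the small proteoglycans Bgn and Fmod (1.08 and 1.25) and the basement membrane protein Smoc1 (0.56).

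Markers of cell types that make these proteins were also counted, where 9.32% of all genes tested were called higher and 5.95% lower. Without Control 1 and TAF15 OE 1 those shares were 7.05% and 5.99%. Markers of mural cells were called higher in 9 of 13 tested, with a summed level of 237 to 284 CPM in Control and 355 to 414 CPM in TAF15 OE. Their count was 4 without Control 2 and 5 without Control 1, Control 3 or TAF15 OE 3. Endothelial markers were called in 6 of 14, at 353 to 431 CPM and 469 to 590 CPM, with TAF15 OE 1 highest. Without both Control 1 and TAF15 OE 1 their count was 1 of 14, close to the share over all genes. Without Control 1 or Control 2 alone 2 were called, and without TAF15 OE 2 or TAF15 OE 3 alone 3. Meningeal and perivascular fibroblast markers were called in 2 of 12, at 171 to 525 CPM and 386 to 706 CPM, with 0 called without Control 2, 1 without TAF15 OE 2 or TAF15 OE 3 and 4 without Control 3. Dcn, Lum and Fmod are in both the fibroblast and the partner list.

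Astrocyte markers were called higher in 8 of 12, where 9.32% of all genes tested were. They summed to 5343 to 6603 CPM in Control and 9025 to 9883 CPM in TAF15 OE. Microglial markers were called higher in 11 of 12, at 511 to 559 CPM and 1023 to 1527 CPM. Oligodendrocyte markers were called higher in 8 of 10, at 5106 to 5495 CPM and 6285 to 8158 CPM. Their count was 2 without TAF15 OE 2, 5 without Control 1, Control 2 or TAF15 OE 1, and 4 with the first library of each group removed. Markers of oligodendrocyte precursors were called in 0 of 7, of ependymal cells in 1 of 6 and of blood in 0 of 3 tested. Markers of excitatory neurons were called lower in 6 of 11, where 5.95% of all genes tested were, and the summed levels given above did not overlap. No marker of these lists was at 0 in every library. The part of these cell types in the collagen and laminin results was not tested.

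Promoter windows were found for 40 of the 55 genes, 12 of them among the 16 called higher. A GC box was in 26 of the 44 member windows (59.1%), a CCAAT box in 14 (31.8%) and a TATA box in 5 (11.4%). Over all promoter windows of RefSeq these shares were 35.7%, 37.4% and 13.6%. The median GC content was 59.5% in member windows and 52.7% over all windows. Among the 14 windows of genes called higher, where Col6a2 and Col9a1 count more than once, a GC box was in 10 (71.4%). Among the 28 windows of genes tested but not called a GC box was in 57.1%. These matches describe the letters of the windows and were not tested against each other.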

How the data were processed

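Raw counts per gene, FPKM and a comparison table were deposited for 6 hippocampal libraries, made with a TruSeq kit per the labels. HISAT2 2.1.0, TopHat2, Bowtie2 2.2.3 and CASAVA were used with build GRCm38, per the submitters' processing notes. Their roles, the counter and the strandedness are not given in the sources used here. Reads of overlapping antisense genes therefore cannot be told apart. The deposited FPKM equalled the count over length and library total within a relative deviation of 3.89e-09 in 8926 genes. The authors' comparison table repeats the counts and adds the authors' normalised signal, fold change as a ratio, log2 fold change and p-value, which were not used for any result.

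Counts were analysed with edgeR 4.0.16 in R 4.3.3: filterByExpr (minimum count 10, minimum total 15), TMM scaling, robust quasi-likelihood fits with group as the only term, and Benjamini-Hochberg adjustment over 16758 genes. Standard errors come from the F statistic. A gene was called at an adjusted p below 0.05. Medians, sums and counts over lists carry no test. On simulated counts of 16508 genes for this comparison, 13 of 158 edgeR calls were false, a larger share than the threshold of 0.05. In these counts edgeR recovered 40.0%, 79.6% and 100% of genes seeded with a log2 fold change of 0.5, 1 and 2. Of genes seeded with -1 it recovered 76.6%. The members and the partner and marker lists were chosen with earlier results of these data known. Named were the 5 members of each class with the smallest p, the 2 with the highest FPKM, the largest stable changes, and 4 genes of each partner list by p. Other members were added, and all are accounted for in the counts, although 1 gene is not reported by name here. Alternatives were DESeq2 1.42.0, its size factors, upper-quartile and total-count scaling, other filters, limma-voom and limma-trend on log2 FPKM (limma 3.58.1), a replicate block, and leaving out libraries. All 56 rows were found in GENCODE M21, 54 at the same position. No 2 libraries were duplicates (smallest chi-square per degree of freedom 5.15). Protein sequences were not used here. Figures were drawn with matplotlib 3.10.9.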

Additional observations from a re-analysis of the deposited data

How the results depend on the processing

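Most values kept their direction and side of the threshold. On log2 FPKM, with a mean of at least 0.5 FPKM and a pseudocount of 1 or 0.1, the calls over all genes moved from 2559 to 1502 and 1537, and to 601 with a pseudocount of 1 and no filter. Over the same 3 settings, members called higher were 6, 6 and 1 (main 16). Of these, basement membrane collagens, other collagens and laminins each had 1, 1 and 0, and fibrillar collagens fell to 1 with no filter. A pseudocount of 1 shrinks low genes. It gave medians of 0.35 (filter) and 0.34 (no filter) for fibrillar collagens, 0.34 and 0.30 for laminins, and 0.15 (no filter) for other collagens. Members called lower numbered 2 with no count filter and 1 each with DESeq2, limma-voom and the replicate block. The laminin median was 0.35 without both Control 1 and TAF15 OE 1. Leaving out 1 library gave 1331 to 2501 calls over all genes, 10 to 16 members higher and 0 to 1 lower. It gave 2 to 5 other collagens higher (median 0.24 to 0.77), a basement membrane collagen median of 0.32 to 0.90 and a laminin median of 0.30 to 0.71. Of the 16 called members, Col11a2 kept its call in all 18 alternatives and Col7a1 lost it in 9.

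Same-numbered libraries deviated together with correlations of 0.123, 0.0998 and 0.0819, not all above 0.1, so the numbers were not taken to pair the mice, although each library correlated best with its own number. With the replicate number as a block, calls over all genes were 3291 (main 2559) and members called higher were 19 (main 16). Col6a4 was then called lower (adjusted p = 0.0376), Col1a2, Lamc1 and Col23a1 were called higher, and Col6a5 turned to -0.026. Log2 fold changes of some members that were not called changed sign. Without both Control 1 and TAF15 OE 1 they were -0.022 for Lama4, -0.0021 for Col12a1 and -0.033 for Col20a1. Col25a1 was -0.0018 with no filter and Col6a5 -0.13 with limma-voom. With 1 library left out in turn they ranged from -0.031 to 0.90 for Col4a3, -0.21 to 0.76 for Col4a4, -0.18 to 0.34 for Col5a1, -0.087 to 0.38 for Col20a1, -0.11 to 0.95 for Col17a1, -0.083 to 0.28 for Col22a1, -0.15 to 0.80 for Col8a2, -0.037 to 0.066 for Col25a1, -0.14 to 0.15 for Col19a1, -0.19 to 0.83 for Col8a1 and -0.25 to 0.43 for Col6a5. The cause was not tested. With 3 mice a group, changes near a log2 fold change of 0.5 are often missed at this depth.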
